A study of Homo sapiens with 2 samples.

Results

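The 6 genes ZNF175, ZNF649, ZNF613, ZNF614, ZNF432 and ZNF484 carried a peak of ASH1 binding at their start in both deposited peak lists. They were chosen by that presence in both lists, with the scores of the chromosome 19 sites already known, so presence, score and rank are given as a description, with no test. A peak counted when it lay within 2 kb of the start site, and 6 of the 910 peaks of replicate 1 and 6 of the 4646 peaks of replicate 2 met this rule, 1 per gene and list. The peaks come from chromatin immunoprecipitation and sequencing in K562, a human leukaemia cell line grown without further treatment. The 2 libraries form 1 group, made with in-house rabbit antibodies to the C-terminus of ASH1 from antibody batch 1 (replicate 1) and batch 3 (replicate 2), so batch and replicate cannot be told apart. Each antibody batch has 1 library, so no spread between repeats could be given.

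ASH1 (gene symbol ASH1L) is a SET-domain methyltransferase of lysine 36 of histone H3 and belongs to the trithorax group, whose members keep genes active. The 6 genes are of the KRAB zinc-finger family: the KRAB domain recruits the corepressor TRIM28 and with it the enzymes that place H3K9me3, and an array of C2H2 fingers, usually encoded in the last exon, binds DNA. KRAB zinc-finger genes lie in clusters, the largest of them on chromosome 19, and their finger-coding 3' exons are known to carry H3K36me3 and H3K9me3 together. The title of the study names domains of both marks. The marks themselves are not analysed here.

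The promoter sequences are shown because the 5 that could be read share a short element. RefSeq windows (GRCh38.p14) run from 250 bases before to 50 after the annotated start, 5′ to 3′ along the gene. They were found for 5 of the 6 genes, all but ZNF649. Capitals mark every match to ATGGCNGC on either strand (GCNGCCAT where the match is on the other strand), which is the core recognised by the zinc-finger factor YY1 with any base at the sixth position.
ZNF175 (chr19:51571033-51571332, plus strand): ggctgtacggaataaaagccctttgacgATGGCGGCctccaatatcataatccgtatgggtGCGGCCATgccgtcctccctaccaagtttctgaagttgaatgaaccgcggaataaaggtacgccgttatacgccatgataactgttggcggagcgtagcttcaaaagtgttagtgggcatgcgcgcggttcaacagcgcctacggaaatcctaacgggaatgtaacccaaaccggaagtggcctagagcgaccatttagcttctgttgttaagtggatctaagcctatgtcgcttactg
ZNF613 (chr19:51927222-51927521, plus strand): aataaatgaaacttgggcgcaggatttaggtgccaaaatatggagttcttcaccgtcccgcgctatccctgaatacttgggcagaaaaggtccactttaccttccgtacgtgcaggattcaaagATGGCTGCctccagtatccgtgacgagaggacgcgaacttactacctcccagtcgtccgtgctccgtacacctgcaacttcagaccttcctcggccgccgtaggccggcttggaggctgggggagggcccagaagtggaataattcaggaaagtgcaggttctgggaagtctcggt
ZNF614 (chr19:52028330-52028629, minus strand): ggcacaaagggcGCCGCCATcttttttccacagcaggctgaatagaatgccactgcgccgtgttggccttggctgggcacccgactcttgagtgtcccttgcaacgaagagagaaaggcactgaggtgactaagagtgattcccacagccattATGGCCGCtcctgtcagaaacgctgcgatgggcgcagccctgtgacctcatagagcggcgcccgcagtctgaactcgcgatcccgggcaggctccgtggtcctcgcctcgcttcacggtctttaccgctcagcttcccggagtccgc
ZNF432 (chr19:52048789-52049088, minus strand): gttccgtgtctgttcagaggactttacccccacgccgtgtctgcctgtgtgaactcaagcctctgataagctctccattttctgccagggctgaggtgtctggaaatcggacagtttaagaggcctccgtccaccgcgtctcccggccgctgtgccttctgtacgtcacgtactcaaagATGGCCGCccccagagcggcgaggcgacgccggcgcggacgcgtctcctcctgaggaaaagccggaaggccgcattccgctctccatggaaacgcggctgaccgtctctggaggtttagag
ZNF484 (chr9:92877989-92878288, minus strand): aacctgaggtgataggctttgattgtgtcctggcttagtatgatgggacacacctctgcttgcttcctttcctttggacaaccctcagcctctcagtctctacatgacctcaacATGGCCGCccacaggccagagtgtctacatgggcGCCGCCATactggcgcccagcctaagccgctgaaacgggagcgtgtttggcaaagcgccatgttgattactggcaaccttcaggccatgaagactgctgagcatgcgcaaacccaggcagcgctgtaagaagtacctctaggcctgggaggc

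All 5 windows held ATGGCNGC, ZNF175, ZNF614 and ZNF484 in 2 places and ZNF613 and ZNF432 in 1. Of the windows of all 27305 genes in the table, taking the outermost start of each, 7.62% held it, and of 400 other protein-coding genes with a ZNF number 9.25% did. This form of the element was chosen after the windows had been read. The stricter YY1 core ATGGCGGC, chosen as a textbook motif, was in 3 of the 5 windows (ZNF175, ZNF614 and ZNF484) and in 3.18% of all windows. In ZNF175 the core began 222 bases before the start. In ZNF614 and ZNF484 it lay on the other strand, with its first base 238 and 102 bases before the start. ZNF432 held ATGGCCGC 71 bases and ZNF613 held ATGGCTGC 126 bases before the start. These windows are in another genome build than the peaks, so whether an element lies under a peak was not measured, and a match is no evidence that YY1 binds there.

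The other motifs searched, also on both strands, were each in at most 2 of the 5 windows. The core of the NRF1 site, GCATGCGC, was in ZNF175 (73 bases before the start) and ZNF484 (2 bases before the start), against 3.29% of all windows. The ETS core CCGGAAG was in ZNF175 and ZNF432, 18 and 10 bases before the start (10.6% of all windows). An SP1 box, GGGCGG, was in ZNF432 and ZNF484 (44.5% of all windows), in both on the other strand and overlapping the ATGGCNGC element. A CCAAT box was in ZNF175 (35.7%). No window held the TATA box TATAAA (12.0% of all windows), the CRE TGACGTCA (1.97%) or the E-box CACGTG (7.41%). Of the 400 other ZNF genes, 40.0% held the ETS core, the same share as in the 5 windows. The NRF1 core was in 4.5% of those 400, the SP1 box in 65.5% and the CCAAT box in 49.0%. The TATA box was in 3.5% of them, the CRE in 4.0% and the E-box in 5.0%. Base composition varied among the 5. The ratio of observed to expected CpG was 1.15 in ZNF175, 0.97 in ZNF432, 0.83 in ZNF614, 0.81 in ZNF613 and 0.43 in ZNF484, against a median of 0.58 over all windows (quartiles 0.22 and 0.86). ZNF484 was the only one of the 5 below that median. The 400 other ZNF genes had a median ratio of 0.79 (quartiles 0.64 and 0.91), near the 0.83 of the 5 windows. GC content ran from 50.7% in ZNF175 to 61.0% in ZNF614 and ZNF432, around the median of 58.3% over all windows.

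**Figure D1:**
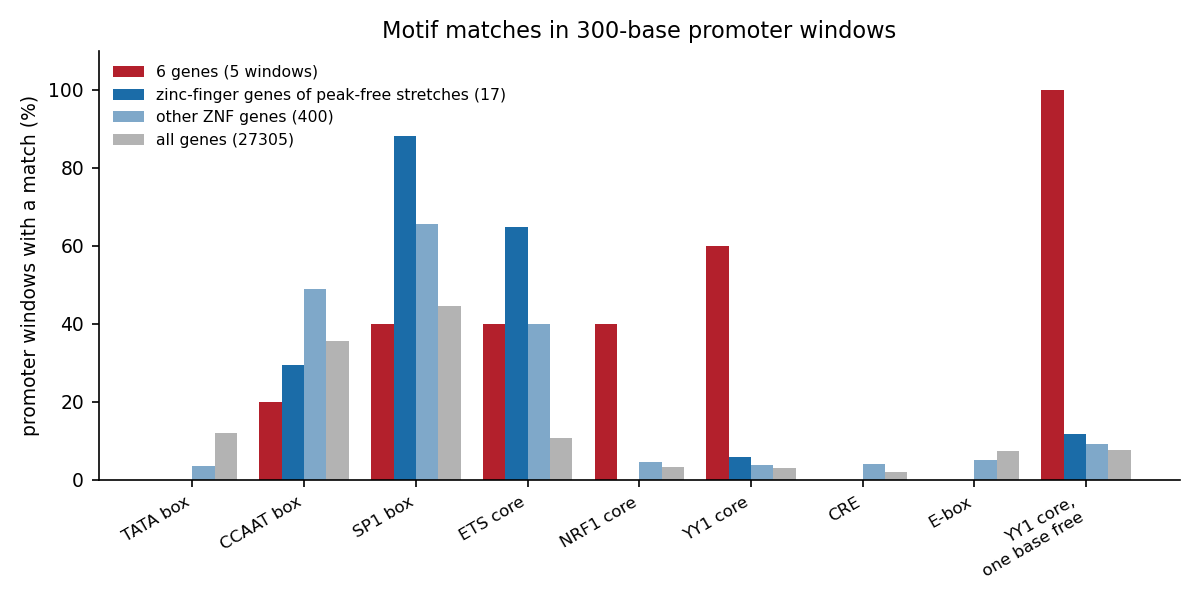
Percent of promoter windows (y axis) with at least 1 match to each motif (x axis), for the 5 readable windows of the 6 genes, 17 zinc-finger genes of stretches without a peak, 400 other ZNF genes and all 27305 genes. The bars of the 5 windows stand at 100.0% for the YY1 core with a free base and at 60.0% for the strict core, against 7.62% and 3.18% of all genes. The form with a free base was chosen after these 5 windows had been read.

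From its form, the deposited score of a peak appears to be -10 times the log10 of its p-value. Such a score rises with depth as well as with enrichment, and the depth of both libraries is unknown, so it is used here to rank peaks within a list. The positions of the peaks are hg19. ZNF175 has been studied as OTK18 in macrophages. Its peak (chromosome 19, 52073906 to 52074915 in replicate 1 and 52073836 to 52074922 in replicate 2) scored 587.04 in replicate 1, rank 11 of 910, and 549.48 in replicate 2, rank 289 of 4646. ZNF649, described as a repressor in MAP kinase signalling, scored 813.67 in replicate 1 (52407758 to 52408838, rank 6) and 500.73 in replicate 2 (52407856 to 52408892, rank 357). Its replicate 1 peak was the highest of the 55 on chromosome 19.

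ZNF613 scored 351.63 in replicate 1 (52429962 to 52431193, rank 19) and 348.16 in replicate 2 (52429807 to 52431138, rank 742). ZNF614 scored 343.4 in replicate 1 (52531174 to 52532411, rank 20) and 472.03 in replicate 2 (52531162 to 52532444, rank 396). These genes had the lowest replicate 1 scores of the 6. ZNF432, linked to the DNA damage response, scored 618.76 in replicate 1 (52551686 to 52553189, rank 10) and 328.89 in replicate 2 (52551712 to 52553139, rank 822), the lowest replicate 2 score of the 6. ZNF484, the only gene of the 6 on chromosome 9, had the highest score in both lists: 863.97 in replicate 1 (95639872 to 95640927, rank 4) and 642.45 in replicate 2 (95639906 to 95641035, rank 197). Its replicate 1 peak was the highest of the 56 on that chromosome.

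The 6 peaks made up 6 of the 20 highest peaks of replicate 1. On chromosome 19 they held ranks 1, 2, 3, 5 and 6 of 55 in that list. In replicate 2 they were high but not at the top: 4 of the 6 lay in the highest 10% of the list and all 6 in the highest 20%, and on chromosome 19 they ranked 13 to 39 of 231. The median score was 602.9 in replicate 1, against 61.6 for its other 904 peaks, and 486.4 in replicate 2, against 147.7 for the other 4640. These contrasts are part of why the genes were picked.

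**Figure D2:**
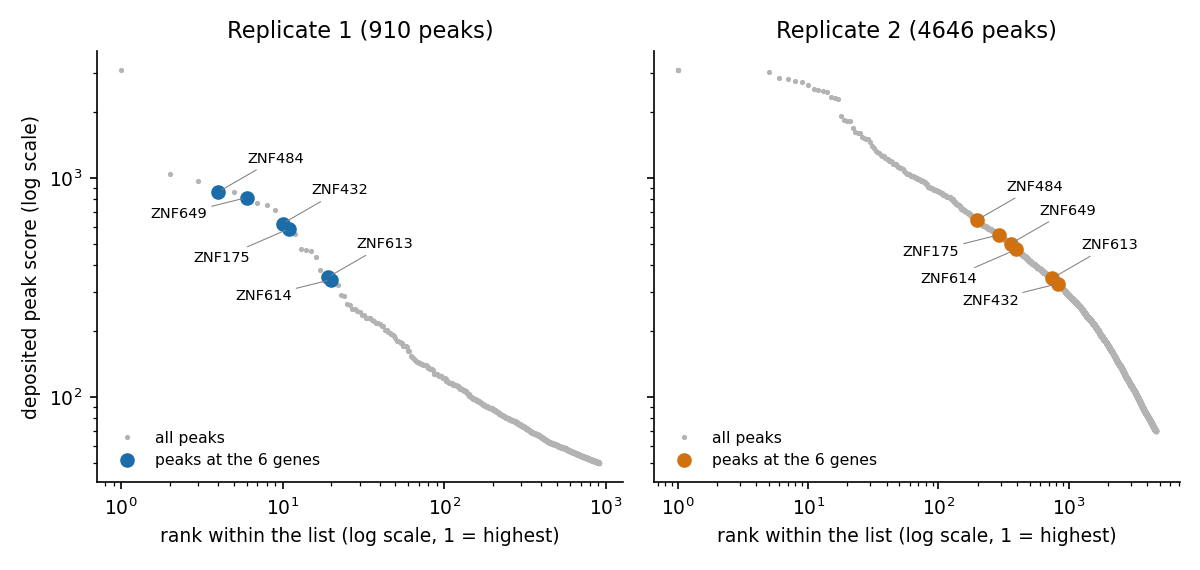
Deposited score (y axis, log scale) against rank within the list (x axis, log scale) for every peak of replicate 1 (left) and replicate 2 (right), with the peaks at the 6 genes coloured and named. The 6 lie at ranks 4 to 20 of 910 in replicate 1 and at ranks 197 to 822 of 4646 in replicate 2.

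Each of the 6 replicate 1 peaks overlapped its replicate 2 counterpart, which the choice of the genes requires. Over the whole lists 51.8% of replicate 1 peaks and 9.99% of replicate 2 peaks had a counterpart. The choice required both peaks to lie within 2 kb of the same start, but within that it set no closer coincidence. The midpoints of the pair were 10.5 bp apart at ZNF614, 12.0 bp at ZNF432, 31.5 bp at ZNF175, 71.0 bp at ZNF484, 76.0 bp at ZNF649 and 105.0 bp at ZNF613. The median distance was 51.3 bp, against 90.5 bp over the other 465 overlapping pairs (quartiles 44.5 and 180.0 bp). Those pairs were not matched to the 6 for score or width. At ZNF175, ZNF614 and ZNF432 the shorter peak lay wholly inside the longer one, and at the other 3 genes 94.8 to 96.8% of it did. The median of this share was 98.4% at the 6 genes and 100.0% over the other pairs, with both quartiles at 100.0%, so the shorter peak lay wholly inside the longer one in most other pairs too.

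The other 14 of the 20 highest replicate 1 peaks also had a counterpart in replicate 2. There they ranked 7 to 629, with a median of 157.0, against a median of 376.5 for the 6 genes.

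**Figure D3:**
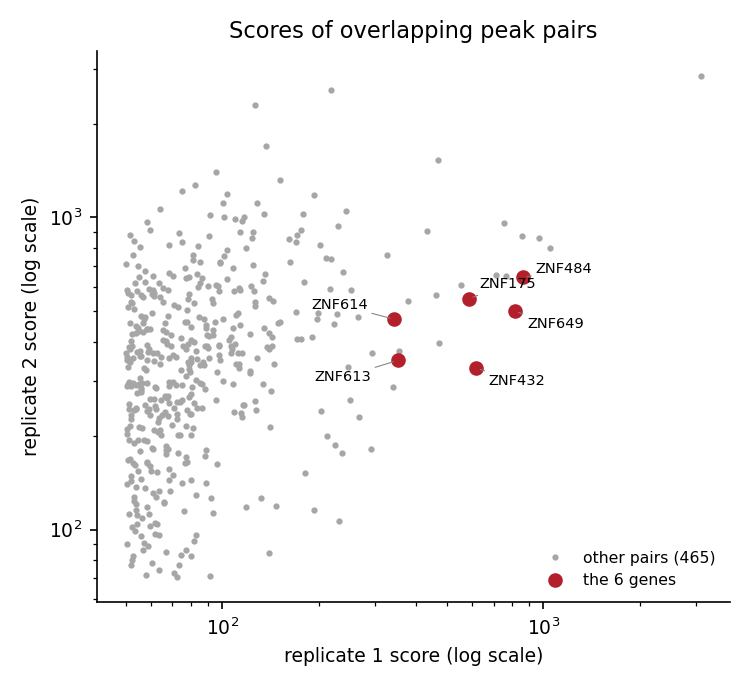
Replicate 2 score (y axis, log scale) against replicate 1 score (x axis, log scale) for the 471 overlapping pairs, each point a pair, with the 6 genes in red. The red points lie at the right of the cloud, between 343.4 and 863.97 in replicate 1 and between 328.89 and 642.45 in replicate 2.

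The start sites used for position were rounded, to within 50 bp for ZNF175, ZNF613 and ZNF614 and to within 500 bp for ZNF649, ZNF432 and ZNF484. At the first 3 genes the start lay inside the peak in both lists. The replicate 1 peak of ZNF175 reached from 594 bp upstream to 415 bp downstream of the start and the replicate 2 peak from 664 to 422 bp. At ZNF613 the peak reached from 738 bp upstream to 493 bp downstream in replicate 1 and from 893 to 438 bp in replicate 2. At ZNF614 the peak reached from 711 to 526 bp in replicate 1 and from 744 to 538 bp in replicate 2. Along the gene, all 6 midpoints of these 3 genes lay upstream, from -227.5 bp to -89.5 bp relative to the start, farther than the rounding.

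At ZNF649, ZNF432 and ZNF484 the rounded start also lay inside the peak in both lists. The midpoints lay from -470.5 bp to -298.0 bp relative to it, which is within the rounding, so the side on which these peaks are centred is not known. The ZNF432 peak was the widest, 1504 bp in replicate 1 and 1428 bp in replicate 2. The narrowest was that of ZNF175 in replicate 1, at 1010 bp, and that of ZNF649 in replicate 2, at 1037 bp. The median width was 1157 bp in replicate 1 and 1207 bp in replicate 2, against 917 and 1066 bp for all other peaks. Other peaks with a counterpart in the other list had medians of 1150.5 bp (chromosome 19) and 967.5 bp (chromosome 9) in replicate 1. In replicate 2 their medians were 1561 bp (chromosome 19) and 1460 bp (chromosome 9), above the 1207 bp at the genes.

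**Figure D4:**
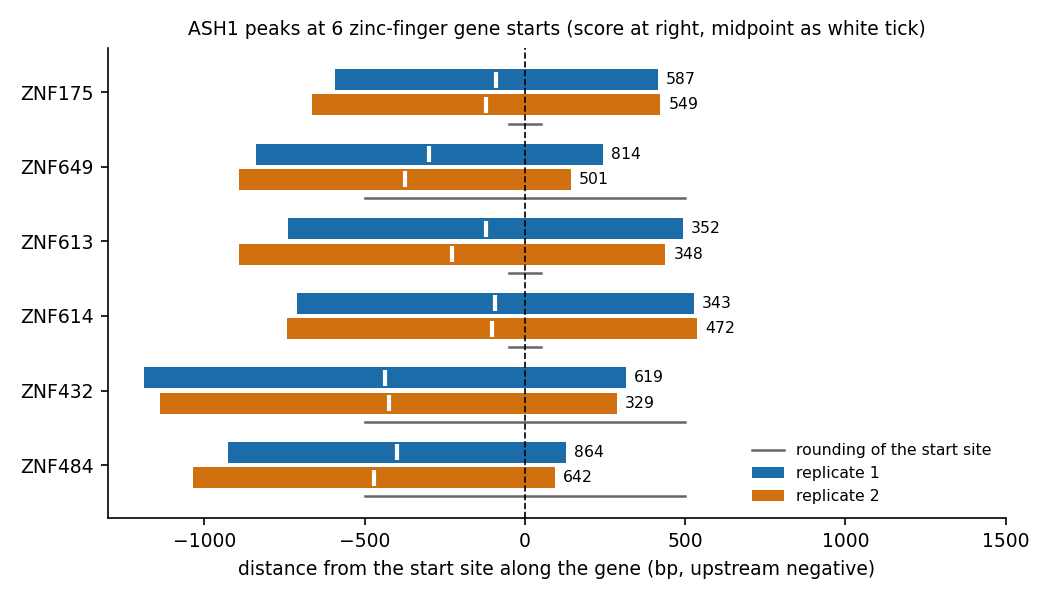
Extent of the peak at each gene along the gene's direction (x axis, bp from the start site, upstream negative) in replicate 1 (blue) and replicate 2 (orange), with the score at the right, the midpoint as a white tick and the rounding of the start site as a grey line. The bars of both lists nearly coincide at each gene, and they extend at most 538 bp downstream of the start.

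No further peak of either list lay over the rest of the 6 genes. No hg19 exon table was used, so each gene body was taken as the stretch downstream of the rounded start with the length RefSeq gives the gene, from 15.1 kb (ZNF614) to 33.9 kb (ZNF484). The 3' exons that encode the fingers fall in this stretch. The peak at the start covered 0.28% (ZNF484, replicate 2) to 3.57% (ZNF614, replicate 2) of it, and the number of other peaks was 0 at all 6 genes in both lists. The lowest share rests on 94 bp downstream of a start rounded to within 500 bp, so it is smaller than its rounding. The nearest peak past a 3' end was a replicate 1 peak with a score of 95.24 at chromosome 19, 52390785 to 52391674. It began 0.54 kb beyond the 3' end of ZNF649, close to the rounding of 0.5 kb, and had no counterpart in replicate 2. RefSeq places the zinc-finger gene ZNF577 between ZNF175 and ZNF649, the stretch that holds this peak. Whether the peak lies at the ZNF577 start was not measured. The long non-coding RNA gene ZNF649-AS1 begins beyond the 3' end of ZNF649 in RefSeq and runs into that gene. Its own promoter window held the strict core ATGGCGGC, 69 bases before its start, as did 3.18% of all windows. The lists hold only 910 and 4646 peaks over the genome, so most stretches of this length hold none. How many other gene bodies hold a peak was not counted, so the 0 is not shown to set these genes apart. Depth is unknown, so weaker signal over the gene bodies was not detectable here and is not shown to be absent.

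In the interval from 51.4 to 53.6 Mb of chromosome 19, the peaks at the 5 genes were the only ones found in both lists. The other peaks were the replicate 1 peak past the 3' end of ZNF649 and 2 replicate 2 peaks, at 51823776 to 51825379 (score 147.51, rank 2328) and 52191665 to 52192414 (score 79.78, rank 4108). In each list they scored below all 5 peaks at the genes, of which the lowest was 343.4 in replicate 1 and 328.89 in replicate 2. With so few other peaks, 0 of 1 and 0 of 2 shared set no useful limit (95% Clopper-Pearson upper bounds of 97.5% and 84.2%, for counting error only). Over chromosome 19 without the 5 genes, interval included, 26 of 50 replicate 1 peaks (52.0%, 37.4 to 66.3%) were shared. In replicate 2, 26 of 226 peaks (11.5%, 7.65 to 16.4%) were shared. Scores at these shared sites had medians of 96.5 in replicate 1 and 348.8 in replicate 2. The highest was 378.31 in replicate 1, below ZNF649, ZNF432 and ZNF175, and 834.15 in replicate 2, above all 5 genes.

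**Figure D5:**
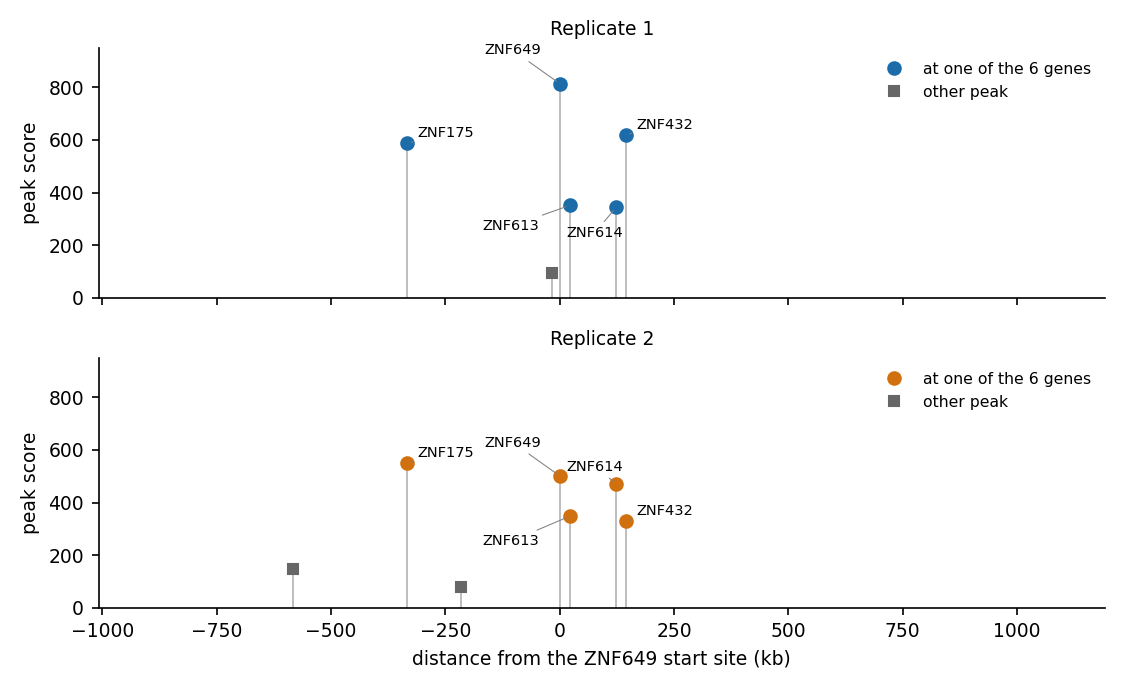
Score (y axis) of every peak in the chromosome 19 interval against its distance from the ZNF649 start site (x axis, kb), replicate 1 above and replicate 2 below, with circles for peaks at one of the genes and squares for other peaks. The 5 circles stand above every square in both lists, and no peak lies to the right of ZNF432.

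The peaks of ZNF649, ZNF613, ZNF614 and ZNF432 lay within 145.4 kb, and with ZNF175 the 5 spanned 479.4 kb. The 332.8 kb between ZNF175 and ZNF649 held 1 other peak in each list, at different places, and RefSeq lists 8 protein-coding genes there, among them the zinc-finger gene ZNF577. Between ZNF613 and ZNF614 lay 99.97 kb without a peak in either list, where RefSeq places ZNF350 and ZNF615. Between ZNF614 and ZNF432 lay 19.2 kb, and between ZNF649 and ZNF613 20.9 kb, also without a peak and with no other zinc-finger gene. Beyond ZNF432 the next peak of replicate 2 was 1262.0 kb away and that of replicate 1 4363 kb away. In RefSeq, 20 protein-coding ZNF genes, from ZNF841 to ZNF816, lie wholly within 1 Mb beyond ZNF432, so none of them had a deposited peak if their order and spacing are the same in hg19.

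Promoter windows were found for 17 of these 22 zinc-finger genes of the peak-free stretches. ATGGCNGC was in 2 of the 17 (11.8%), ZNF350 and ZNF615, and the strict core in 1, ZNF615. The 17 were picked for lying in peak-free stretches. ATGGCNGC was chosen after the 5 windows of the 6 genes had been read, so the difference from those 5 is no test of the element. ZNF350 and ZNF615 are the genes between ZNF613 and ZNF614, where neither list held a peak. How often a window with the element goes with a peak over all genes was not counted. An SP1 box was in 15 of the 17 (88.2%) and the ETS core in 11 (64.7%), against 2 of 5 for each among the 6 genes. The NRF1 core was in 0 of the 17. The median ratio of observed to expected CpG was 0.85 in the 17 (0.63 to 1.13), close to the 0.83 of the 5 windows. Of the 28 listed zinc-finger genes of the 19q13.41 cluster other than the 6, among them these 22, windows were found for 22. Of those windows 3 (13.6%) held ATGGCNGC and 2 (9.09%) held the strict core.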

How the data were processed

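ASH1 was immunoprecipitated from K562 cells and the DNA sequenced, in 2 libraries. The authors deposited 1 peak list per library with a score for each peak. The submitters' processing notes list BWA, MACS, hg19 and GRCh38, and the peak files carry hg19 in their names. Tool versions, settings and any control library: not given in the sources used here. Positions were made 1-based. The start sites are those of the rule that listed the genes, as rounded there, and genes, motifs and lists were chosen with earlier results of these data known. All 6 genes are named, with every peak of the chromosome 19 interval, each shared or highest-scoring one included. Peaks overlapping by at least 1 bp were called shared. Ranks count from the highest score of a list. Percentiles are the percent of a list with a score no higher. No test between groups was possible. Gene names, order, lengths and promoter windows came from RefSeq (GRCh38.p14) and no coordinate was converted. ZNF649, which has no window, was taken as opposite in strand to ZNF649-AS1. Protein features, planned at first, were not computed because no protein table was used here. Overlap and motif search were tested on simulated data. Alternatives covered distance, score, overlap, list length, ranking and motif letters. Python 3.11.15, pandas 2.3.3, scipy 1.17.1 and matplotlib 3.10.9 were used.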

Additional observations from a re-analysis of the deposited data

How the results depend on the processing

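The number of genes with a peak in both lists was 6 within 1 kb and within 5 kb, with scores of at least 100, with an overlap of 50% or more of the shorter peak, and with only the 910 top peaks of replicate 2, an alternative added after the data were seen. It was 3 with scores of at least 500, a threshold that by construction leaves ZNF175, ZNF649 and ZNF484. It was also 6 in each list alone (without replicate 1, and without replicate 2). The choice of the genes fixes this count and the count within 5 kb. The counts with scores of at least 100 and with the 910 top peaks follow from the scores and ranks already given. These counts are therefore no added support. The median percentile of the 6 scores in replicate 1 was 98.96. It was 93.5 among peaks with scores of at least 100, 97.3 within the chromosome and 98.7 by score per kb of width. In replicate 2 it was 91.9, and 88.8, 91.1 and 95.1 under the same alternatives; ranking against fewer low peaks lowers a percentile by construction. The share of other interval peaks found in both lists stayed at 0 under the overlap alternative in both lists and with scores of at least 100 in replicate 2, where replicate 1 had no such peak left. The YY1 core was in 3 of 5 windows, in 5 with 1 mismatch allowed (27.6% of all windows) and in 5 with the sixth base free. The CRE was in 0, and in 2 with 1 mismatch (12.1% of all windows), and the NRF1 core in 2 either way. No paired analysis was possible because both libraries belong to the same group. The depth of the libraries is unknown.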

Other observations

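ZNF484, on chromosome 9, has no other of the 6 genes near it. Its next peak on the lower side was found in both lists, 73.0 kb away in replicate 1 (chromosome 9, 95566213 to 95566913, score 76.76) and 72.3 kb away in replicate 2 (95566091 to 95567619, score 163.33). On the other side the next peak was 67.7 kb away in replicate 2 and 2678 kb away in replicate 1. On chromosome 9 without ZNF484, 36 of 55 replicate 1 peaks (65.5%) and 35 of 235 replicate 2 peaks (14.9%) were shared.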
